A study of Homo sapiens with 40 samples.

Results

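Chromatin accessibility was compared between BT474R cells treated with heregulin (HRG) and BT474R cells treated with vehicle for 1 h. BT474 is a HER2-overexpressing line of luminal breast carcinoma, and BT474R is a clone of it that had been grown in trastuzumab, an antibody against HER2, until it was resistant. All cells had been serum starved, and HRG or water (Con) was then given in fresh starvation medium. ATAC-seq, which cuts and tags open DNA with a transposase, had been deposited as 1 peak list per library. The lists titled R1_HRG and R1_Con, 2 of each, were taken from 40 lists in all, which also cover BT474, a baseline at 0 h, EGF, and 12 and 24 h. BT474R is 1 clone, and nothing in the labels says whether replicates were separate cultures, so p-values measure only the spread between these samples. A peak list carries no read total, so the depth behind each value is unknown.

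HRG binds HER3 and HER4, which then pair with HER2, a receptor that has no ligand of its own. The pair signals through RAS and the MAP kinases ERK1 and ERK2 and through PI3K and AKT. ERK activity induces immediate early genes, among them FOS and JUN family members, whose proteins dimerise as the transcription factor AP-1, and it also induces phosphatases and adaptors that dampen the signal, such as the DUSP and SPRY families. AP-1 binds the heptamer TGACTCA on either strand and is known for its occupancy of distal enhancers.

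Peaks of the 4 lists that overlapped by 1 bp or more were merged into 60052 regions on chromosomes 1 to 22 and X, and 47591 of them had a peak in all 4 lists. A peak in both HRG lists and no Con list was found at 585 regions (0.974% of the regions), called HRG-only below. The opposite, a peak in both Con lists and no HRG list, was found at 875 regions (1.46%), called Con-only. Gains and losses of peaks were therefore both rare, and peaks seen in a lone list were more frequent, at 2274 regions for 1 HRG list and 2493 for 1 Con list. With only the 52162 strongest peaks of each list, which is the length of the shortest list, the counts were 821 HRG-only and 674 Con-only, so which direction had more regions depended on the length of the lists.

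The sequences shown are windows of 201 bases centred on the summit, the position of the highest signal. The 8 windows of HRG-only regions were chosen because they hold the AP-1 heptamer, which was present in 230 of 585 HRG-only regions. All windows are given 5′ to 3′ on the forward strand of GRCh38, with each heptamer, read on either strand, in capitals. The opening 5 windows come from the 10 HRG-only regions of highest rank. The last 3 lie nearest to the starts of ERRFI1 and DUSP10, which encode feedback regulators, and EREG, which encodes an ERBB ligand.
an intron with no coding start within 100 kb, chr18:50081013-50081213: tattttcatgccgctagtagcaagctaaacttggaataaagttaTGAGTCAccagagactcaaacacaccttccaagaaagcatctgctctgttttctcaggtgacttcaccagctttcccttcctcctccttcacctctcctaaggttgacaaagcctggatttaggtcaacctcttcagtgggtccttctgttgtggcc
an intron with no coding start within 100 kb, chr17:69540113-69540313: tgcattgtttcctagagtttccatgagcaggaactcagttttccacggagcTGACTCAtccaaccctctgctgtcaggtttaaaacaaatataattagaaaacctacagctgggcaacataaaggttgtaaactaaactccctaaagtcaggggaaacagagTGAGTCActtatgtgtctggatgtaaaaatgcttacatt
COA1, chr7:43674685-43674885: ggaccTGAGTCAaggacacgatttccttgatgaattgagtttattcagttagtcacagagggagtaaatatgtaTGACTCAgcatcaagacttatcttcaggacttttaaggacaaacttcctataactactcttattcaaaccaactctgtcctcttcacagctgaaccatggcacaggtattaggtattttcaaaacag
DAAM1, chr14:59275797-59275997: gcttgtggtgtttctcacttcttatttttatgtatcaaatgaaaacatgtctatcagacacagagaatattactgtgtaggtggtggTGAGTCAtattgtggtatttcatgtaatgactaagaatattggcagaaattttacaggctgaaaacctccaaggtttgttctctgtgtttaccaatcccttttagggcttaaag
intergenic with no coding start within 100 kb, chr7:156198377-156198577: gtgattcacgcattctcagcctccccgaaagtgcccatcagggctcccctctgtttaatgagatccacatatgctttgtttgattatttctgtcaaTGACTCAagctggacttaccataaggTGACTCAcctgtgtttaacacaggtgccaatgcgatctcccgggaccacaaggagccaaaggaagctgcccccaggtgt
ERRFI1, chr1:8097551-8097751: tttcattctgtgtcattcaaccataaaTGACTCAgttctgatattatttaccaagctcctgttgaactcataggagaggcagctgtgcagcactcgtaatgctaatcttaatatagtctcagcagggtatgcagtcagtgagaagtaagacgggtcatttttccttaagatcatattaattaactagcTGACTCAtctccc
DUSP10, chr1:221712350-221712550: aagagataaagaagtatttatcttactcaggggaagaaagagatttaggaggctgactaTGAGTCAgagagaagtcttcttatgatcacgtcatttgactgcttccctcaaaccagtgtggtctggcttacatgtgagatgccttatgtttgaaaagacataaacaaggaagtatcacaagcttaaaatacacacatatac
EREG, chr4:74374604-74374804: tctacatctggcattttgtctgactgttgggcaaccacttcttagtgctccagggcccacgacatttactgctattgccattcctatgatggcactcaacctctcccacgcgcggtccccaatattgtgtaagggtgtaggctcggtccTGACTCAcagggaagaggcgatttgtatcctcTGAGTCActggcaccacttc
A Con-only window near ZBTB7B and the window near PLK2, the region of smallest p among those higher after HRG, hold no heptamer and are shown for contrast. They were not matched in GC content, which was 70.1% in the ZBTB7B window, and an HRG peak lay 58 bp from the ZBTB7B region.
ZBTB7B, chr1:155004049-155004249: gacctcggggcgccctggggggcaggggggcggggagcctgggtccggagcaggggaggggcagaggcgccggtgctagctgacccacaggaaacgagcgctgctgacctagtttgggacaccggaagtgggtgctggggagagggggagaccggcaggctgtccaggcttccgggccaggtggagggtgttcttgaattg
PLK2, chr5:58452714-58452914: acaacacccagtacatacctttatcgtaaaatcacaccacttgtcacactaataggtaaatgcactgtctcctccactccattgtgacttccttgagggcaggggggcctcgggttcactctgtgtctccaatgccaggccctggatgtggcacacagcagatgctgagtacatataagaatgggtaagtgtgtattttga

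The 4 lists were alike in size. HRG lists held 52162 and 56334 peaks (54248 ± 2950, SD, n = 2) and Con lists held 56494 and 54256 (55375 ± 1583, SD, n = 2), and the groups overlapped (exact permutation, two-sided p = 0.667, where 0.333 is the smallest that 2 against 2 allow). The peaks covered 31.7 and 35.1 Mb after HRG and 32.3 and 34.1 Mb after vehicle. Within 1 kb of an annotated transcript start, of any type of gene, lay 36.9% and 35.3% of HRG peaks and 35.7% and 36.3% of Con peaks (exact permutation p = 1). Replicates shared 84.1% (HRG) and 84.2% (Con) of the bases that the peaks of either list covered. Lists from different arms shared 83.3% to 84.7%, so at this level an HRG list resembled a Con list as closely as it did its replicate. A peak's strength is given as its rank percentile, its rank by score among the peaks of its list, where 100 is the strongest peak. Of 16 luminal epithelial markers, 15 had a promoter peak in all 4 lists, with FOXA1 at the 99.8th rank percentile and KRT19 between 99.5 and 99.6. ESR1, which encodes the estrogen receptor, had one in Con replicate 1 alone, at 6.77. Among 14 basal, fibroblast, endothelial and immune markers only KRT5, between 25.4 and 29.8, and COL1A1, between 99.3 and 99.4, had a promoter peak.

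HRG-only regions were weak peaks. The median of their mean rank percentile in the HRG lists was 8.95 and the highest was 44.4, so most of them lay near the score of 200 under which no peak was listed. The highest of them, in an intron at chr18:50081014-50081559, stood at 40.6 and 48.2 in the HRG lists, had no Con peak within 10041 bp, and holds the first of the windows shown. It had a peak at 55.8 and 53.0 after EGF at 1 h, at 28.3 and 32.6 in HRG-treated BT474, and none at baseline or in BT474 given vehicle. The next with a heptamer, at chr17:69539818-69540409, stood at 46.0 and 32.8, and the nearest Con peak was 66803 bp away. BT474 had peaks there in both arms, at 54.8 and 61.9 after HRG and 32.5 and 35.0 after vehicle. The region in an intron 54.7 kb from the start of COA1, a factor in assembly of mitochondrial respiratory complexes, stood at 29.2 and 39.9, and at 42.2 and 46.7 in BT474 after HRG against no peak after vehicle. The region 87.2 kb from the start of DAAM1, a formin that acts on actin, stood at 29.6 and 33.8.

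Of the other leading HRG-only regions, the intergenic one at chr7:156198344-156198680 held 2 heptamers and stood at 30.4 and 33.0. NAB2, which encodes a corepressor that binds EGR1 and is induced along with it, had an HRG-only region 864 bp from its start at 46.4 and 25.9. A Con peak lay 255 bp from that region, and BT474 had a peak there in both arms, at 59.7 and 57.6 after HRG and 29.0 and 39.0 after vehicle. A region 3.6 kb from ENSG00000288706 on chromosome X stood at 25.5 and 59.4, a wide gap between replicates. Regions near ERVV-1, at 31.0 and 37.2, and DSC1, a desmosomal cadherin, at 31.0 and 35.4, made up the 10 with one in an intron at chr4:76548309-76549008, at 27.2 and 36.0. Of these 10 regions, 5 held the heptamer and 2 lay within 1 kb of a start.

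Con-only regions were as weak, with a median rank percentile of 7.96 and a highest value of 56.3. That highest region, 1.3 kb from the start of ZBTB7B, a zinc finger repressor, stood at 52.7 and 59.9 in the Con lists, but an HRG peak lay 58 bp from its edge. HRG peaks also lay 151 bp from the JMJD8 region and 196 bp from the SHISA5 region, which stood at 31.8 and 31.7 and at 29.2 and 26.0 in the Con lists. These 3 regions were therefore flanked closely by peaks of the other arm. The region in an intron of the KCTD16 locus had no HRG peak within 10415 bp and stood at 31.4 and 33.6. CSK, the kinase that restrains SRC family kinases, had a Con-only region 1.3 kb from its start at 39.3 and 22.7, with an HRG peak 762 bp away. Over all Con-only regions, 109 (12.5%) had an HRG peak within 500 bp, and 45 HRG-only regions (7.69%) had a Con peak that near. None of the 10 leading Con-only regions held the AP-1 heptamer.

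The AP-1 heptamer was frequent in the gained regions and rare in the lost ones. It lay within 100 bp of the summit in 230 of 585 HRG-only regions (39.3%, exact 95% binomial interval 35.3 to 43.4%), in 15 of 875 Con-only regions (1.71%, 0.963 to 2.81%) and in 11.3% of all 60052 regions. These intervals cover counting error only. The share fell by list pattern, from 39.3% with a peak in both HRG lists to 20.8% with a peak in 1 HRG list alone, 11.1% in all 4 lists, 4.77% in 1 Con list alone and 1.71% in both Con lists. HRG-only regions were lower in GC (median 44.8%) than Con-only regions (50.7%) and all regions (52.7%), and fewer were promoters, 15.7% and 17.5% against 34.0%. Among regions over 1 kb from a start with a GC content of 40 to 50%, the heptamer was present in 41.2% of 250 HRG-only, 1.06% of 283 Con-only and 15.7% of all 16094 regions, so the gap was as wide there. It was also present in 32.6% of the 92 HRG-only regions at promoters, against 3.27% of 153 Con-only and 5.89% of all promoter regions. Under the other ways of setting regions and leaving out each list, the HRG-only share ranged from 24.6 to 43.8% and the Con-only share from 1.71 to 3.93%.

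**Figure D1:**
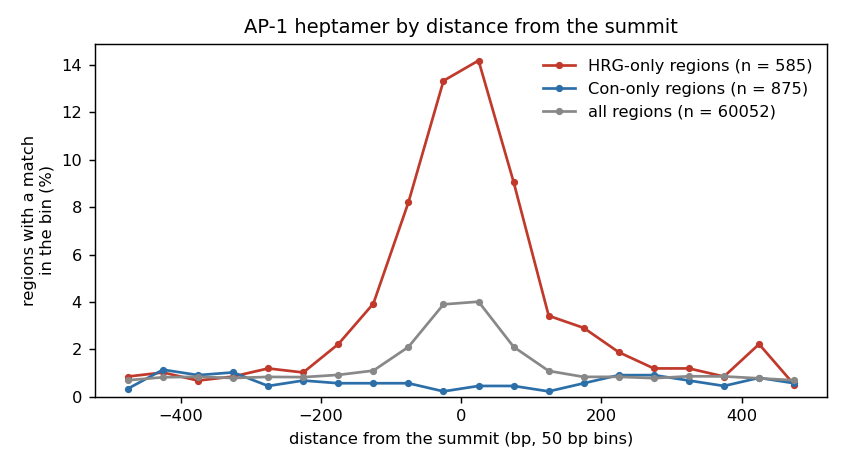
The x axis is the distance from the summit in bp and the y axis the percentage of regions with an AP-1 heptamer in each bin of 50 bp, for HRG-only (red), Con-only (blue) and all regions (grey). HRG-only regions reach 14.2% in the bin after the summit and 13.3% in the bin before it, while the Con-only line stays flat with no peak at the centre.

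Other motifs differed less between the gained and lost regions. The TEAD hexamer GGAATG was present in 16.4% of HRG-only and 13.9% of Con-only regions, against 13.3% of all. The forkhead heptamers TGTTTAC or TGTTTGC were present in 19.0% and 22.3%, against 17.6%, and the GATA hexamer AGATAA in 10.8% and 10.6%, against 8.10%. The palindromic STAT motif was present in 7.69% and 5.26%, against 5.31%. Sequences typical of promoters were rarer in both sets than over all regions, with SP1 (GGGCGG) at 7.69% and 8.11% against 21.5%, and ETS (CCGGAAG) at 1.20% and 1.14% against 4.36%. AP-2 motifs were present in 9.40% of HRG-only and 15.8% of Con-only regions, against 17.8%, and serum response factor motifs in 0.684% and 0.686%, against 0.863%. All motifs were read on both strands in the same window, and matches of different motifs may overlap.

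Few regions shared by all 4 lists differed in rank. Of 47591 regions tested with limma on the rank percentile of the highest peak, 3 were higher after HRG (0.0063%) and 1 was lower (0.0021%), each with an adjusted p of 0.0457. At an unadjusted p under 0.05, 1140 were higher (2.4%) and 1485 lower (3.12%) (5.52% in all). The 3 higher regions lay near PLK2, ZNF775 and IKZF3, and the lower one near HMGN4.

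PLK2 is a serine and threonine kinase of the polo family and is induced by serum and growth factors. Its region at chr5:58450657-58453379, 7.3 kb downstream of the start and past the end of the gene, stood at 96.1 and 96.8 after HRG and at 80.2 and 78.1 after vehicle. Both HRG lists were above both Con lists, by 17.3 ± 0.987 percentile points (SE, limma, n = 2 against 2). The region was also high at baseline, at 91.2 and 91.1, and after EGF, at 97.9 and 97.8. In BT474 it stood at 85.0 and 84.9 after HRG and at 24.7 and 21.3 after vehicle, again with no overlap. At 12 h in BT474R, HRG lists stood at 91.5 and 95.8 and Con lists at 67.4 and 83.3, and at 24 h at 64.4 and 60.5 against 45.7 and 37.3.

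ZNF775, a zinc finger gene, had a promoter region at chr7:150378099-150379788 that stood at 97.6 and 97.9 after HRG and 90.5 and 90.6 after vehicle. In the HRG lists the region held 1 peak and in the Con lists it held 2, and the summed scores of its peaks overlapped, at 2904 and 3276 after HRG and 2997 and 3181 after vehicle. IKZF3, a zinc finger factor known from lymphocytes whose gene lies near ERBB2, stood at 97.9 and 97.6 against 90.3 and 89.6 at its promoter, with 1 peak after HRG and 2 after vehicle. The HMGN4 region, 17.1 kb upstream of a gene for a nucleosome-binding protein, stood at 85.4 and 85.8 against 96.1 and 96.5, with 2 peaks after HRG and 1 after vehicle. In each of these 3 regions the arm with 2 peaks was the lower arm.

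At ZNF775, IKZF3 and HMGN4 the number of peaks within the region thus moved with its rank. Over all regions tested, 4.77% were split into different numbers of peaks in different lists, against 4 of the 4 called regions and 19 of the 20 with the smallest p in each direction. When the scores of all peaks in a region were summed before ranking, an alternative chosen after seeing the data, no region passed (limma, lowest adjusted p 0.477, 1229 higher and 1595 lower at an unadjusted p under 0.05). Among 45276 regions with 1 peak in each list, none passed either (lowest adjusted p 0.357, 1170 higher and 1704 lower at an unadjusted p under 0.05). Of the 20 regions, 13 differed by less than 1 percentile point in summed score. ZNF775 then differed by 0.07, IKZF3 by 0.52 and HMGN4 by -0.0029 points. PLK2 kept most of its difference, with summed scores of 2495 and 2880 after HRG and 1160 and 1570 after vehicle and 14.0 ± 1.67 percentile points (SE, limma adjusted p = 0.477).

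Most of the other regions of smallest p were of the same kind, with different numbers of peaks in different lists and little difference in summed score. Higher after HRG were regions near BMP7, SLC22A23, CA4, VCX2, NIBAN2, ACBD5 and MYH9, with adjusted p between 0.0601 and 0.161, and lower were those near GOLT1A, KREMEN2, PFDN2, NQO2, KLF10, DPM1, TTLL10, FASN and BRF2. None of these passed the threshold. NIBAN2 held 2 peaks in each list. At GOLT1A, Con replicate 1 held 2 peaks, as both HRG lists did, and stood at 99.3 against 94.5 and 94.3, so the number of peaks did not follow the rank there. The KLF10 region, at the start of a TGF-beta-inducible Krüppel-like factor, stood at 96.1 and 96.3 after HRG and 99.6 and 99.5 after vehicle, with 2 peaks against 1, and its summed score differed by 0.016 points. Exceptions in summed score were BMP7, a ligand of the BMP pathway, which differed by 2.12 points, VCX2 by 3.41, MYH9 by 1.64, TTLL10 by -2.54 and BRF2 by -3.09. FASN, fatty acid synthase, had an 11515 bp region, 16 kb from its start, with 5, 5, 6 and 2 peaks. It stood at 68.3 and 72.0 against 91.7 and 98.1. Summed scores were 2269 and 3399 after HRG and 4452 and 5437 after vehicle, a difference of -3.16 percentile points. The baseline lists lay far apart there, at 98.2 and 41.6, and the EGF lists of 1 h stood at 22.6 and 10.2.

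With summed scores, or with 1 peak per list, the region of smallest p among those higher after HRG lay near DUSP6, a phosphatase that inactivates ERK. It is named here because of this value. The region, chr12:89345811-89347352, 6.0 kb downstream of the start and past the end of the gene, held 1 peak in each list at 79.7 and 84.3 after HRG and 57.0 and 53.1 after vehicle. Its scores were 1165 and 1470 against 618 and 604, a difference of 27.2 ± 3.21 percentile points in summed score (SE, limma adjusted p = 0.477). At baseline it stood at 72.5 and 52.1, so 1 of the 2 untreated lists was above both Con lists of 1 h. It stood at 86.6 and 81.7 after EGF and at 91.8 and 92.8 after 12 h of HRG, where Con replicate 1 had no peak and Con replicate 2 stood at 33.2. No HRG or Con list of BT474 at 1 h had a peak there. The DUSP6 promoter itself stood at 99.9 in all 4 lists. With summed scores the smallest p of all belonged to a region lower after HRG, 7.2 kb downstream of the start of PIM3, a serine and threonine kinase. It stood at 68.6 and 75.7 after HRG and 93.5 and 93.0 after vehicle, with the arms apart, and differed by -21.1 ± 2.14 percentile points in summed score (SE, limma adjusted p = 0.477). By its highest peak it stood at 69.6 and 66.8 against 82.1 and 93.3.

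**Figure D2:**
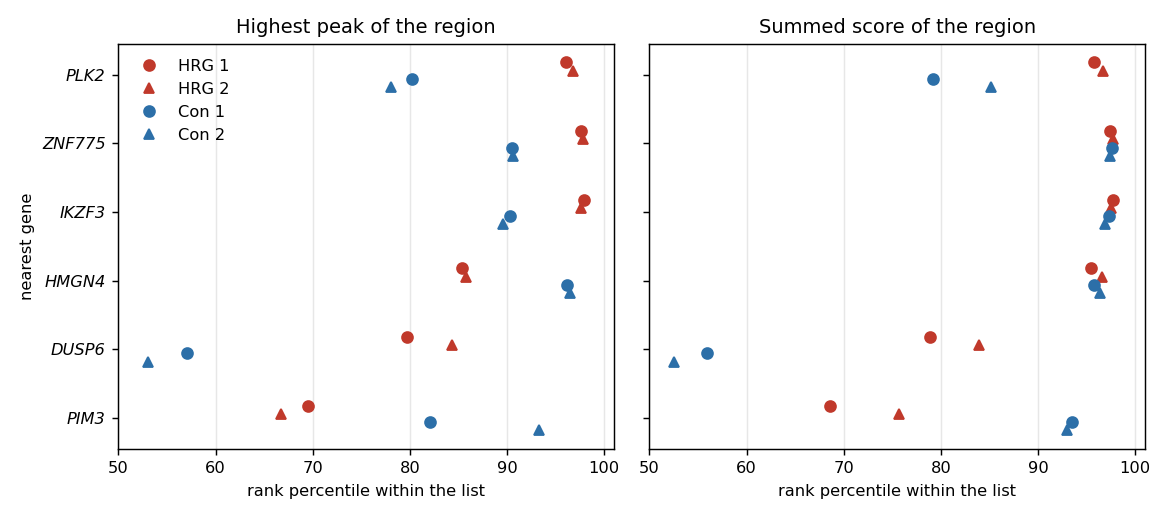
Each row is a region named by its nearest gene, and the x axis is its rank percentile within each list (axis from 50), by its highest peak on the left and by the summed score of its peaks on the right. Red marks are the 2 HRG lists and blue marks the 2 Con lists, and the arms coincide on the right for ZNF775, IKZF3 and HMGN4 but not for PLK2 or DUSP6.

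Ranks shifted with the AP-1 heptamer across regions that all 4 lists shared. The heptamer was present in 41.2% of the 1140 regions higher after HRG at an unadjusted p under 0.05, in 2.76% of the 1485 lower ones and in 11.1% of all 47591. By size of the difference, the share was 2.22% below -20 points, 3.04% from -20 to -10, 9.67% from -2 to 2, 25.1% from 5 to 10, and 33.3% above 20. Among regions with 1 peak in each list the same ends stood at 2.03% and 37.1%. GC content moved with these classes too, without a steady order. Its median was 53.5% below -20 points, 57.2% from -2 to 2 and 47.5% above 20, and it was 48.8% in the regions higher at an unadjusted p under 0.05 and 55.2% in the lower ones. Among regions over 1 kb from a start with a GC content of 40 to 50%, the heptamer was present in 53.0% of 389 higher and 2.72% of 331 lower regions. No heptamer was present in the 10 higher regions of smallest p, and 2 of the 10 lower ones, near NQO2 and KLF10, held it.

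**Figure D3:**
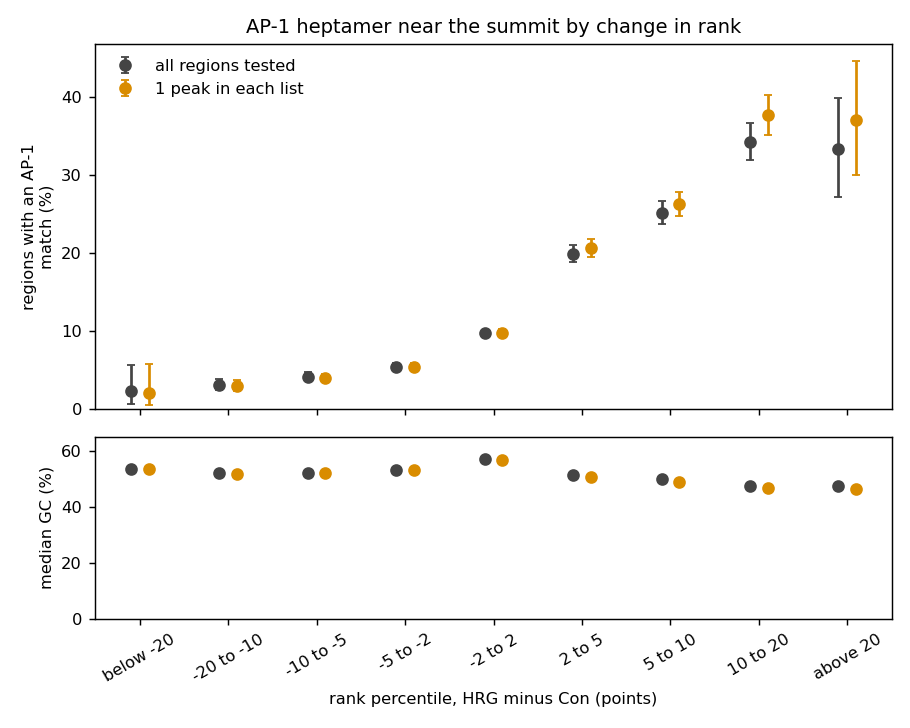
The x axis is the difference in rank percentile between HRG and Con, in points, the upper y axis the percentage of regions with an AP-1 heptamer within 100 bp of the summit, and the lower y axis their median GC content in percent. Bars are exact 95% binomial intervals, and the share rises from 2.22% to 33.3% over all regions tested (grey) and from 2.03% to 37.1% where each list had 1 peak (orange).

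Promoters of immediate early genes, the transcription factors and regulators that growth factors induce within minutes, were open in both arms. Of 29 such genes, 28 had a promoter peak in all 4 lists and none passed the test. FOS stood at 73.5 and 74.4 after HRG and 68.2 and 76.6 after vehicle, and JUN at 99.4 and 99.6 against 99.6 and 99.6. EGR1, an early zinc finger factor, stood at 99.6 in each list. IER3 and KLF10 had an unadjusted p under 0.05, with differences of 0.85 and -3.34 points. Of the 210 regions nearest to these genes, none was HRG-only (against 0.974% of all regions) and 6 were Con-only (2.86%, against 1.46%). The 6 lay near MCL1, EGR1, CCN2, EGR2 and NR4A1, which had 2. The EGR1 region lay 1.8 kb from the start, stood at 2.09 and 16.5 in the Con lists, and had an HRG peak 399 bp away. Peaks that overlapped it stood at 99.8 and 99.6 at baseline and at 99.9 in the HRG and Con lists of BT474 at 1 h. In BT474R, EGF replicate 2 stood at 99.7 there and EGF replicate 1 had no peak. The NR4A1 regions, near the start of an orphan nuclear receptor gene, stood at 11.2 and 21.1 and at 15.8 and 34.1, with HRG peaks 2666 and 1919 bp away.

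Near genes that feed back on the ERK and JAK pathways, more regions were higher than lower after HRG at an unadjusted p under 0.05. Of their 152 regions with a peak in all 4 lists, 14 were higher (9.21%, against 2.4% of all regions) and 6 were lower (3.95%, against 3.12%), with a median difference of 0.86 points against -0.51 over all regions, and none passed the adjusted threshold. Of 197 regions nearest to these genes, 5 were HRG-only (2.54%, against 0.974% of all regions) and 2 Con-only (1.02%, against 1.46%). ERRFI1, an inhibitor of EGFR and HER2 kinase activity, had an HRG-only region 71.3 kb upstream at 23.8 and 21.2, with 2 heptamers, and EGF lists stood at 29.3 and 39.0 there. The DUSP10 region, near a phosphatase of JNK and p38, stood at 6.30 and 8.13 and held 1 heptamer. SPRED2 (3.41 and 11.9) and SPRY1 (2.94 and 17.0), inhibitors of the RAS route, and TRIB1, a pseudokinase (1.17 and 16.3), had HRG-only regions without one. Con-only regions lay near DUSP4, at 1.84 and 3.61, and SOCS1, a JAK inhibitor, at 12.8 and 33.0. At promoters, SOCS3 stood at 78.4 and 78.6 after HRG and 49.6 and 63.4 after vehicle, a difference of 22 points that did not pass (limma adjusted p = 0.814). Of 24 promoters, PHLDA1 (3.01 points) and LRIG1 (-1.62 points), an inhibitor of ERBB receptors, also had an unadjusted p under 0.05.

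Promoters of EGFR, ERBB2 and ERBB3 ranked high in both arms. ERBB2, which encodes HER2, and its neighbour GRB7 were at the very top of all 4 lists, with ERBB3 between 98.3 and 98.7 and EGFR between 96.9 and 97.7. ERBB4, the other HRG receptor, had a Con-only promoter region, 880 bp from its start at 6.07 and 14.0. No baseline list of BT474R and no EGF list of 1 h had a peak there either. BT474 lists of 1 h stood between 51.7 and 56.9 at this region in both arms. Among ligands, EREG, epiregulin, had an HRG-only region 9.6 kb downstream at 11.0 and 8.69 with 2 heptamers, and the arms overlapped at the promoters of AREG and HBEGF. EPGN, epigen, stood at 24.3 and 30.5 after HRG and 6.33 and 9.20 after vehicle at its promoter, with the groups apart, and did not pass the test. GRB2, the adaptor that links receptors to RAS, had an HRG-only region 41.4 kb downstream at 8.93 and 7.71. Of the 56 regions of this list in all 4 lists, 2 were higher and none lower at an unadjusted p under 0.05 (3.57%, against 2.4%).

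HRG-only regions were more often open after EGF than at baseline in BT474R. They had a peak at 66.8% and 48.5% in the EGF lists of 1 h and at 18.8% and 5.13% in the baseline lists, where all regions had one at 82.9% and 76.5% and at 85.6% and 71.2%. Con-only regions had a peak at 15.7% and 2.40% after EGF and at 54.2% and 14.7% at baseline, where the groups overlapped and replicates lay far apart. These lists also differed in length, with 51503 and 47474 peaks after EGF and 53007 and 44546 at baseline. Of the HRG-only regions with a heptamer, 77.8% and 66.1% had a peak after EGF. At 12 h the HRG-only regions had a peak at 19.1% and 12.8% in HRG lists and at 0.342% and 1.03% in Con lists, and at 24 h at 43.4% and 20.9% against 4.27% and 9.57%. Groups did not overlap at either time. At 12 h the arms were apart in the same direction for the Con-only regions, at 10.7% and 3.54% after HRG and 0.914% and 2.97% after vehicle, and for all regions, at 73.8% and 68.5% against 51.5% and 64.3%. At 24 h the arms overlapped for the Con-only regions, at 57.0% and 10.3% after HRG and 13.8% and 19.5% after vehicle, and for all regions, at 86.6% and 71.7% against 67.3% and 73.8%. The lists also differed in length, with 45808 and 42604 peaks against 32479 and 40331 at 12 h and 55289 and 44351 against 41833 and 45799 at 24 h, and the part of length was not tested. These comparisons have 2 lists a group and no test.

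**Figure D4:**
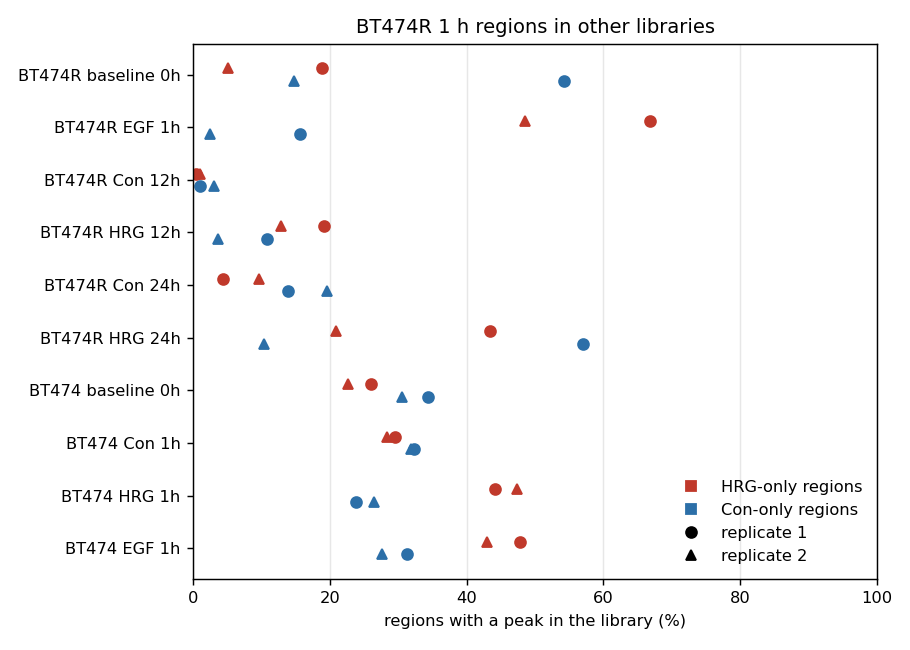
The x axis is the percentage of HRG-only (red) and Con-only (blue) regions of the 1 h comparison that have a peak in each other list, named on the y axis, with circles for replicate 1 and triangles for replicate 2. HRG-only regions exceed Con-only regions in the EGF lists of BT474R (66.8% and 48.5% against 15.7% and 2.40%) and in the HRG lists of BT474 (44.1% and 47.4% against 23.8% and 26.4%).

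In BT474, whose 4 HRG and Con lists of 1 h were not used to choose the regions, the same regions leaned the same way. HRG-only regions of BT474R had a peak at 44.1% and 47.4% in BT474 HRG lists and 29.6% and 28.4% in its Con lists, and Con-only regions at 23.8% and 26.4% against 32.2% and 31.8%. Of the 585 HRG-only regions, 78 were HRG-only in BT474 too (13.3%, against 1.60% of all regions) and 3 were Con-only there (0.513%, against 1.93%). Of the 875 Con-only regions, 42 were Con-only in BT474 (4.80%) and 5 HRG-only (0.571%). No peak in these BT474 lists was found at 281 of the former and 548 of the latter. Where all 4 BT474 lists had a peak, both HRG lists ranked above both Con lists at 574 of 827 regions that were higher in BT474R at an unadjusted p under 0.05 (69.4%, against 25.9% of all regions), and below at 559 of 920 that were lower (60.8%, against 30.0%). Counted on its own, BT474 had 1845 HRG-only regions (3.37% of 54672) and 1828 Con-only regions (3.34%), and the heptamer was present in 37.6% and 2.63% of them, against 12.3% of all.

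The HRG effect differed between the lines at few regions, and there it was mostly the larger in BT474. A limma interaction over the 34838 regions with a peak in all 8 lists called 92 (0.264%), of which 50 held different numbers of peaks in different lists. With regions of 1 peak in each list, 196 of 30975 passed, and the effect was the larger in BT474 at 194 of them, with a median size of 11.8 points in BT474 and 1.19 in BT474R. Over all 30975 the median sizes were 3.10 and 1.85, and the median gap between replicates was 2.15 and 2.62. At the 196 regions the Con lists stood at a median of 90.4 in BT474R and 79.4 in BT474, and 103 of them stood at 90 or more in BT474R. The part of these levels in the result was not tested. The effect in BT474 was positive at 77 of the 194 and negative at 117, and the heptamer was present in 33 and 4 of these. A region 4.8 kb downstream of the EGR1 start stood at 90.9 and 91.8 after vehicle and 99.0 and 99.2 after HRG in BT474. In BT474R it stood at 87.4 and 87.8 after vehicle and 84.7 and 86.1 after HRG, and the effects differed (difference of effects -9.99 ± 0.862 points, SE, limma adjusted p = 0.0172). At PLK2 the effect was 61.9 points in BT474 and 17.3 in BT474R, and with summed scores the difference was -49.3 ± 3.83 (SE, limma adjusted p = 0.0126). Con lists stood there at 80.2 and 78.1 in BT474R and at 24.7 and 21.3 in BT474. The scale thus left BT474R no room for a gain as large as that in BT474. Exceptions, larger in BT474R, were a region near SRCIN1, an adaptor that restrains SRC, with 9.95 points against -0.47, and one near TRIM26, a ubiquitin ligase, with -25.4 against 4.91.

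**Figure D5:**
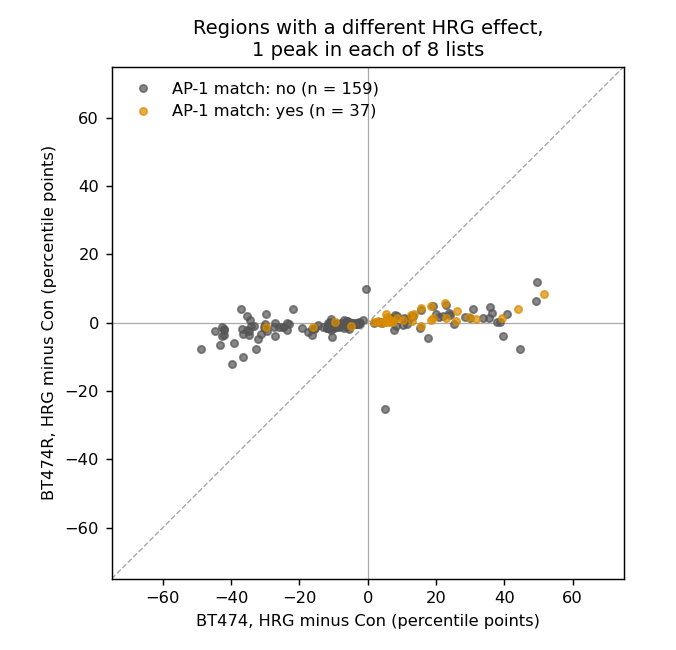
Each point is 1 of the 196 regions whose HRG effect differed between the lines among regions with 1 peak in each of 8 lists, with the effect in BT474 on the x axis and in BT474R on the y axis, both in percentile points, and orange points hold the AP-1 heptamer. The points lie along the horizontal line at 0, with a median effect size of 11.8 points in BT474 and 1.19 in BT474R.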

How the data were processed

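Groups were taken from the sample titles. The authors trimmed reads with Trim Galore 0.6.6, aligned them by BBMap to the GRCh38 build, and ran Genrich on the sorted alignments of each library, without pooling replicates. Which Genrich options were used, including any shift for the transposase cut, is not given in the sources used here, and these can change peak widths and numbers. The deposited score of a peak is Genrich's area under the curve of significance, which depends on the depth of its library and has a floor of 200. It was therefore used only as a rank within its list. Read counts were not used here, and the authors' read-level test was not repeated. The summit offset deposited by the authors placed the motif windows.

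Peaks overlapping by 1 bp were merged over the 4 lists (chromosomes 1 to 22 and X; 28 to 31 peaks per list lay on other sequences). A region's value was the rank percentile of its highest peak. limma 3.58.1 (lmFit, eBayes with trend, R 4.3.3) was fitted over all regions with a peak in every list, with Benjamini-Hochberg adjustment over all of them and a threshold of 0.05. The script was tested on simulated data. Starts came from GENCODE release 44, and a region was named by the nearest protein-coding start within 100 kb. Motifs were searched with Python 3.11.15 and pysam 0.24.0 within 100 bp of the summit. The text names, in each direction, the 10 presence regions of highest mean percentile, the 10 regions of smallest limma p, and list genes with a presence difference or a limma call. Some gene results are left out. Presence has no test. The members and gene lists were chosen with earlier results of these data known.

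Alternatives were 50% coverage of a region, scores of at least 400, equal numbers of top peaks, peaks trimmed to 400 bp, all sequences, promoters within 3 kb, other scales, missing peaks at 0, a replicate block and leaving out each list. Summed scores, regions with 1 peak per list and AP-1 shares within limits of GC were added after seeing the data.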

Additional observations from a re-analysis of the deposited data

Results flagged for a closer look

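The effect of HRG at 1 h differed between BT474R and BT474 by the limma interaction at 92 regions. In each direction the 5 with the smallest p are given as the HRG effect in BT474R minus that in BT474, in percentile points of the highest peak. The difference was 20.17 at chr1:229843854 (effects of -0.40 and -20.6), 17.39 near SERP2 (-0.25 and -17.6), 9.93 at chr13:44758609 (-0.13 and -10.1), 7.47 near POU2F1 (2.27 and -5.20) and 24.05 near EPPK1 (-1.34 and -25.4). It was -12.29 near MAP1LC3A (0.18 and 12.5), -28.04 near DPM1 (-25.7 and 2.32), -44.66 near PLK2 (17.3 and 61.9), -21.25 near USP14 (0.53 and 21.8) and -11.09 near MAFK (0.39 and 11.5). POU2F1 is an octamer-binding factor, MAFK a small MAF protein and MAP1LC3A an autophagy protein. In BT474R the Con lists stood at 99.2 and 98.9 at MAP1LC3A, 98.2 and 97.8 at USP14 and 96.5 and 96.2 at MAFK. At PLK2 they stood at 80.2 and 78.1. The scale ends at the strongest peak, so gains as large as those in BT474 were not possible there. A weaker response in BT474R cannot be read from these differences. DPM1 differed by a fall in BT474R, where Con lists stood at 86.5 and 83.8.

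All 10 regions held different numbers of peaks in different lists. With the scores of a region's peaks summed, PLK2 differed by -49.3 ± 3.83 (SE, limma adjusted p = 0.0126) and USP14, near a proteasome-associated deubiquitinase, by -5.16 ± 0.513 (adjusted p = 0.0173). By summed score the Con lists of BT474R stood at 78.6 and 84.7 at PLK2 and 97.8 and 97.5 at USP14. The same limit of the scale thus held. The other 8 no longer passed. Nearest to the threshold were chr1:229843854 at 3.79 ± 0.611 (adjusted p = 0.0506) and SERP2 at 5.10 ± 0.852 (adjusted p = 0.0553), with POU2F1 at 0.30, MAP1LC3A at -0.999, DPM1 at -3.41 and EPPK1 at 6.33.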

How the results depend on the processing

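The presence counts depended on the setting. HRG-only and Con-only regions numbered 356 and 479 with scores of at least 400, and leaving out 1 list gave 914 to 2550 and 1320 to 2974. HRG-only regions were fewest without HRG replicate 2 (914) and most without HRG replicate 1 (2550). With equal numbers of top peaks the counts were 821 and 674, and with peaks trimmed to 400 bp 702 and 1062. The AP-1 share was 43.8% and 3.34% with scores of at least 400, 34.2% with trimmed peaks (HRG-only) and 2.97% with equal numbers of top peaks (Con-only), and 24.6 to 33.7% and 3.03 to 3.93% without 1 list. The HRG-only share was above the Con-only share in every setting run.

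Regions ranked higher and lower by limma (3 and 1) numbered 5 and 4 with scores of at least 400, 0 and 0 with equal numbers of top peaks, 7 and 0 with trimmed peaks, 18 and 11 on quantile-normalised log2 scores, 18 and 12 on normal scores, 0 and 0 with missing peaks at 0, and 0 and 0 with summed scores or 1 peak per list. Leaving out 1 list gave 0 to 64 and 0 to 113, with 29 and 20 without HRG replicate 1, 18 and 113 without HRG replicate 2, 0 and 0 without Con replicate 1, and 64 and 3 without Con replicate 2. An arm of 1 list is there assumed to vary like the other. At 0 and 0, 1823 and 1501 regions had an unadjusted p under 0.05 with equal numbers of top peaks, 1380 and 979 without Con replicate 1, and 1468 and 1850 with missing peaks at 0. With summed scores, ACBD5 (-0.18) and KLF10 (0.016) reversed.

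Replicate numbers were not shown to pair samples (correlation of same-numbered deviations 0.048 over 47591 regions). With a replicate block, 428 regions were higher and 317 lower, and the interaction called 13. The interaction called 175 with summed scores, 196 with 1 peak per list and 19 to 193 without 1 list, with 19 without HRG replicate 1, 36 without HRG replicate 2, 167 without Con replicate 2 of BT474R, 28 and 193 without HRG replicates 1 and 2 of BT474, and 55 without its Con replicate 2. Where a cause of these shifts is not given, the cause was not tested.

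The difference in peak number, -1127 (HRG minus Con), was 959 without HRG replicate 1, within -3213 to 959 without 1 list, and covered length differed by 0.18 Mb in the other direction. The promoter share differed by 0.15 percentage points, by -0.14 with equal numbers of top peaks, and by -0.67 to 0.96 without 1 list, and was negative without HRG replicate 1 (-0.67) or Con replicate 1 (-0.15). Of 423 values of 47 presence regions under alternatives, 349 moved by less than the spread and 74 by more, 45 of them with scores of at least 400. Of 235 values of 20 rank regions, 140 kept their side of the threshold, 81 moved past it, 12 lost it and 2 reversed. No paired analysis was possible for presence because presence has no test.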

Other observations

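In gene groups outside the immediate response no region passed the limma threshold. Of 23 interferon and STAT genes, 16 had a promoter peak in all 4 lists, and STAT3 alone had an unadjusted p under 0.05, at 88.2 and 89.2 after HRG and 90.7 and 90.9 after vehicle. Of 18 glycolysis and hypoxia genes, 15 had a promoter peak in all 4 lists and none had such a p, and 3 of their 144 regions (2.08%, against 1.46% of all) were Con-only, near EPAS1 (HIF-2 alpha, 3.63 and 10.8) and the hexokinases HK2 (26.8 and 0.531) and HK1 (4.99 and 2.10), with HRG peaks 812, 583 and 966 bp away. Among 26 genes of the PI3K, AKT and mTOR pathway, 1 of 92 regions was HRG-only (1.09%, against 0.974% of all), near PIK3CD, at 0.111 and 4.82. Of their 73 regions in all 4 lists, 4.11% were higher and 5.48% lower at an unadjusted p under 0.05, against 2.4% and 3.12% of all regions. Of 14 androgen receptor and lipid genes, 13 had a promoter peak in all 4 lists and none had such a p there, and of their 63 regions in all 4 lists 6.35% were higher and 6.35% lower at that p.

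Of 13 genes for membrane organisation of HER2, MAL2, a protein of apical transport, stood at 96.8 and 97.6 after HRG and 95.5 and 96.2 after vehicle at its promoter and had an HRG-only region 64.2 kb upstream at 7.78 and 5.41. HSP90AB1, a chaperone of HER2, stood at 94.5 and 94.6 against 95.8 and 95.5, and these 2 promoters had an unadjusted p under 0.05 in the list. The keratin genes KRT7 (6.12 and 8.92) and KRT8 (0.646 and 1.99) had Con-only regions away from their promoters, 2 of the 159 regions of luminal markers (1.26%, against 1.46% of all). TP63 had 1 HRG-only region, at 14.1 and 13.8, and 1 Con-only region, at 2.76 and 8.39. None of these regions passed the limma threshold or could be tested by presence.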
